A study of Mus musculus with 2 samples.

Results

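The 5 genes of the Ikaros family of zinc finger transcription factors, Ikzf1 (Ikaros), Ikzf2 (Helios), Ikzf3 (Aiolos), Ikzf4 (Eos) and Ikzf5 (Pegasus), were examined in mouse plasmacytoid dendritic cells (pDCs), the dendritic cells specialised in type I interferon production. They were taken by gene symbol from 19938 named genes, and all 5 were measured. Each gene is represented by its brightest probe set, a group of probes read together as 1 value. The family was chosen by its measured levels and log2 differences on these 2 arrays, and both arrays also set the choice of probe set, so its levels and differences are given as descriptions.

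Total RNA came from bone marrow pDCs of chimeric mice, which had received fetal liver cells 2 months earlier to replace their blood system. The donor cells were Runx2-/- in 1 group and wild type in the other. In both, CD11b-negative cells with surface BST2 and B220 were collected by flow cytometry, and 250 ng of RNA per sample was hybridised to an Affymetrix Mouse Gene 1.0 ST array. There was 1 array per genotype, so no value has a replicate error and no difference could be tested. The labels give neither the ages of the animals nor whether mice were pooled, and a chimera keeps host cells outside the transplanted blood system.

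Ikaros family proteins share zinc fingers that bind DNA near one end and a second set at the other end through which members pair with one another. They recruit chromatin regulators such as the NuRD remodelling and deacetylase complex, and can repress or activate genes. Ikaros acts throughout blood development, and mice with reduced Ikaros activity lack peripheral pDCs. Aiolos is best known from B cells, plasma cells and other lymphocytes, and Helios and Eos from regulatory T cells.

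The sorted cells carried pDC transcripts on both arrays. The pDC receptor gene Siglech read 13.48 on the wild-type array and 13.55 on the Runx2-deficient array (log2 intensity), and Tcf4, the factor that specifies pDCs, at 13.16 and 13.11. Of 17 measured pDC markers, 6 were above 0 and 11 below, and the median difference (Runx2-deficient minus wild-type) was -0.31. Over all named genes, 42.6% were above 0 and the median was -0.033. Ptprs, a receptor phosphatase gene, and Cadm1, an adhesion gene, differed by -1.16 and -1.09, Lag3 by -0.74, Spib by -0.69 and the interferon regulator gene Irf7 by -0.68. Dntt, at 1.10, was the 1 marker at least 2-fold higher, and Ptprs and Cadm1 were the 2 at least 2-fold lower. The Dntt difference was known from earlier results, so the count of higher markers supports nothing on its own. The shares over all named genes were 0.436% higher and 0.647% lower. The samples also differed in genes of other cells. The 18 granulocyte markers had a median difference of -1.74 and a summed intensity of 19848 on the wild-type array and 3235 on the Runx2-deficient array. The 9 measured erythroid markers had a median of -0.78, and the Y-linked Eif2s3y, Uty and Kdm5d were 21.7-fold, 7.69-fold and 4.81-fold lower. What these differences contribute to the values below was not tested, and genotype cannot be told apart from any other difference between the 2 samples. No probe set carries the Runx2 name in the annotation used, so the targeted gene was not analysed here. The related Runx1 read 11.15 on the wild-type array and 11.62 on the Runx2-deficient array, and Runx3 at 10.49 and 10.11.

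Promoter sequences were matched by symbol for 2 of the 5 members, Ikzf1 and Ikzf5, from RefSeq (GRCm38.p6). They are shown because Runx2, the factor removed in these cells, binds DNA directly. The 100 bases just before each annotated start are printed 5′ to 3′ on the gene's strand, with CG dinucleotides in capitals. The first Ikzf1 window is chr11:11685825-11685924 (plus strand), the second is chr11:11690077-11690176 (plus strand), and the Ikzf5 window is chr7:131410479-131410578 (minus strand).
Ikzf1, first start: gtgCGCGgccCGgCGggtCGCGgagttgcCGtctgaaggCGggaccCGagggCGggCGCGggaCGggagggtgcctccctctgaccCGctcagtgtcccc
Ikzf1, second start: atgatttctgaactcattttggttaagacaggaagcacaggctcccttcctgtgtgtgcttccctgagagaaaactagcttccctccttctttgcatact
Ikzf5: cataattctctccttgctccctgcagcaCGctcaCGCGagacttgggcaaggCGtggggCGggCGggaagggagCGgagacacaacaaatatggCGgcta
The first Ikzf1 start lies in CG-rich sequence, with 52 CG dinucleotides in the 300 bases from 250 before to 50 after it. The second start has 2 and the Ikzf5 start 27, and the median over 32851 promoters of the same length was 7. The RUNX core TGTGGT was searched on both strands of the 300 bases and had 0 matches in each of these 3 promoters. Of all 32851 promoters, 16.8% hold it. The string TGGGAA, searched as the Ikaros core, also had 0 matches in each, and 25.6% of all promoters hold it. Only these exact spellings were searched, so other forms of either site were not counted. The shorter GGGAA occurs in the printed Ikzf5 window and, on the other strand, in the second Ikzf1 window. A single probe set reports Ikzf1, so transcripts from its 2 starts were not separated.

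Ikzf3 differed most between the samples, and the other 4 members lay between -0.24 and 0.10 in log2 difference. A gene was counted as differing at 2-fold, without a test. By that threshold 1 of 5 members was higher in the Runx2-deficient sample and 0 were lower. Over all named genes, 0.436% were higher and 0.647% lower by that threshold. The contrast was used in choosing the family, so nothing is read from its share against this background. The median difference of the 5 members was -0.0044, beside -0.033 over all named genes.

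**Figure D1:**
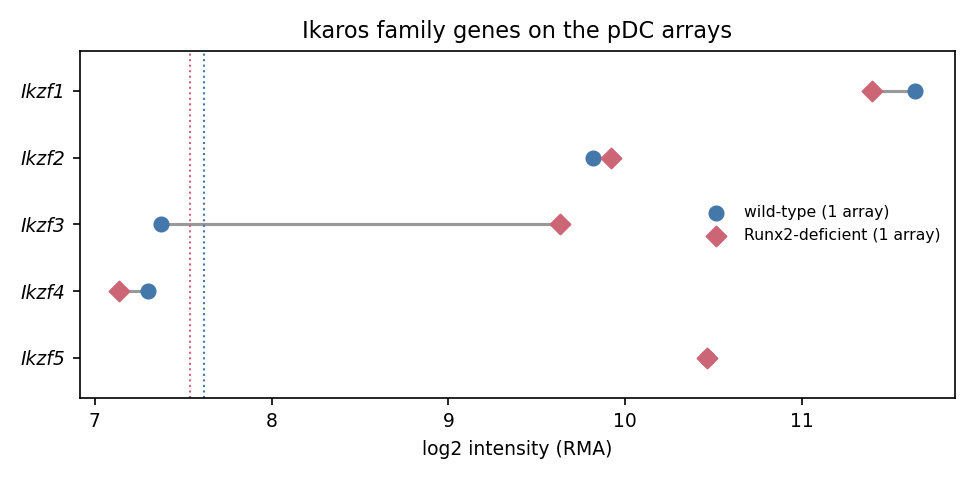
Log2 intensity (RMA, x axis) of each Ikaros family gene in the wild-type sample (blue circles) and the Runx2-deficient sample (red diamonds), 1 array each, joined by a grey line (the Ikzf5 points coincide); dotted lines mark the median of all named genes on each array, 7.61 (wild-type) and 7.54 (Runx2-deficient). Ikzf3 crosses from below to above the median, while the points of the other 4 genes differ by 0.24 at most.

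Ikzf1 encodes Ikaros, the founding member. Its probe set read 3189 intensity units on the wild-type array and 2692 on the Runx2-deficient array, or 11.64 and 11.39 on the log2 scale. The difference was -0.24, a ratio of 0.844 between the Runx2-deficient and wild-type intensities. Brightness was judged by the median of all named genes on each array, 7.61 for wild-type and 7.54 for Runx2-deficient, and a gene at or above it on at least 1 array passed the filter. Ikzf1 was well past it on each array. Among the 10337 genes that passed, 36.1% differed by at least as much in either direction.

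Ikzf3 encodes Aiolos, which can pair with Ikaros. It read 166 intensity units on the wild-type array and 793 on the Runx2-deficient array, or 7.38 and 9.63 on the log2 scale. The difference was 2.26, a 4.77-fold higher level in the Runx2-deficient sample. The wild-type value lay 0.24 below the median of named genes and the Runx2-deficient value 2.09 above it. Of all probe sets, 47.4% read lower than the Ikzf3 one on the wild-type array and 81.1% on the Runx2-deficient array. Ikzf3 therefore passed the filter only through the sample in which it was high. In that filtered set 0.793% of genes were higher and 1.17% lower by the 2-fold threshold, and 5 genes had a larger positive difference than Ikzf3. The fold rests on a dim wild-type value. With 64 intensity units added to both values before log2, which shrinks differences of dim probe sets, the difference was 1.90.

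Ikzf2 encodes Helios, found at high levels in many regulatory T cells. It read 902 intensity units on the wild-type array and 968 on the Runx2-deficient array, or 9.82 and 9.92 on the log2 scale. The difference of 0.10 corresponds to a level 7.28% higher, and 70.1% of genes past the filter differed by at least as much. Both values lay more than 2 log2 units above the median of named genes.

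Ikzf4 encodes Eos, a partner of the regulatory T cell factor Foxp3. It read 158 intensity units on the wild-type array and 141 on the Runx2-deficient array, or 7.30 and 7.14 on the log2 scale, with a difference of -0.16. It was the 1 member below the brightness filter on both arrays. The deposited values carry no detection call, so a low true level and background could not be separated for Ikzf4, nor for Ikzf3 in the wild-type sample.

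Ikzf5 encodes Pegasus, a more distant member with a role in platelet formation. It was the 1 member with several probe sets, and they did not show the same difference. The brighter one read 1413 intensity units on the wild-type array and 1409 on the Runx2-deficient array, a log2 difference of -0.0044. The dimmer one read 286 and 369, a log2 difference of 0.37. Neither reached 2-fold. The sign of the brighter probe set's difference was not stable, since it was 0.0053 when the arrays were centred on a common median. Levels of different members are not ranked here, because probe sets differ in how strongly they bind their targets.

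**Figure D2:**
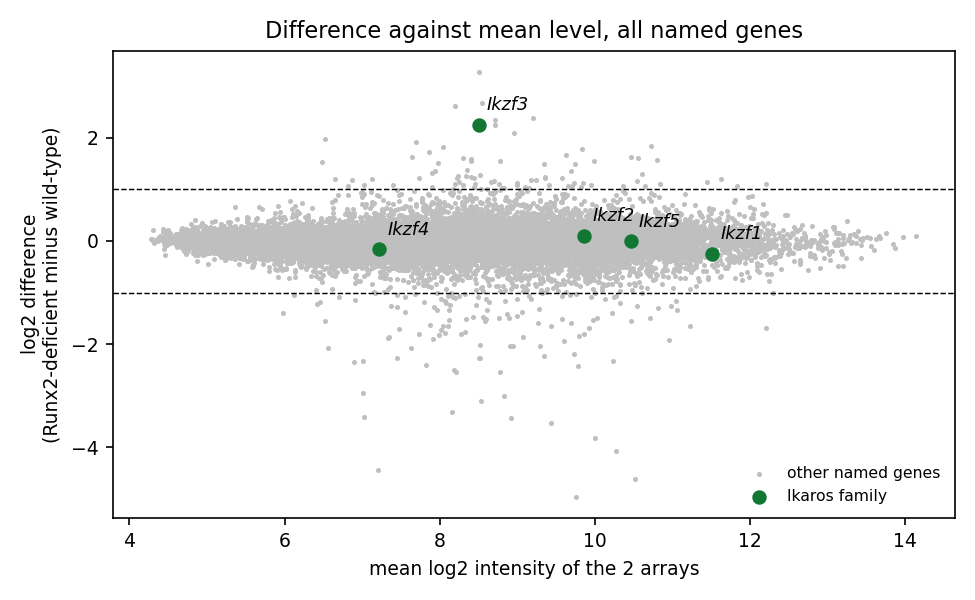
Log2 difference (Runx2-deficient minus wild-type, y axis) against the mean log2 intensity of both arrays (x axis) for 19938 named genes (grey), with the 5 Ikaros family genes in green and dashed lines at 2-fold. Ikzf3, at 2.26, stands above the upper line, and the other 4 members lie inside the grey band between -0.24 and 0.10.

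The genes closest to each member on both log2 values at once were listed, a likeness that rests on 2 arrays and on probe brightness. Nearest to Ikzf3 were Pcp4, at 7.38 on the wild-type array and 9.62 on the Runx2-deficient array, the Ras activator gene Rasgrp3 at 7.22 and 9.88, and the B cell scaffold gene Bank1 at 7.59 and 9.84. Few genes lay near Ikzf3, with distances of 0.0092, 0.30 and 0.30 log2 units. The 3 genes nearest to Ikzf1 (Uprt, Bmyc and Pik3r1) lay within 0.059, and those nearest to Ikzf2, Ikzf4 and Ikzf5 within 0.020.

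None of the 6 genes beside Ikzf3 on the chromosome was 2-fold apart. Few genes were anywhere, 0.436% higher and 0.647% lower over all named genes, so nothing is read from this count. On the RefSeq map (GRCm38.p6), the 3 nearest named genes on one side were Grb7, Mien1 and Erbb2, with log2 differences of 0.027, -0.13 and -0.14. On the other side Zpbp2, Ormdl3 and Lrrc3c differed by 0.38, -0.10 and 0.012. Only Mien1, Ormdl3 and Lrrc3c among these 6 were past the brightness filter. The 6 neighbours of Ikzf1 ran from -0.35 to 0.016 and were all below the filter.

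The complexes through which Ikaros proteins act had no gene 2-fold apart, which 0.436% (higher) and 0.647% (lower) of all named genes were. Of 20 genes of the NuRD complex and other corepressors, 0 were 2-fold apart, 6 were above 0 and 14 below, and the median difference was -0.034. Over all named genes 42.6% were above 0 and the median was -0.033. Chd4, the remodelling ATPase of NuRD, was at 10.60 on the wild-type array and 10.58 on the Runx2-deficient array. The deacetylase genes Hdac1 and Hdac2 differed by -0.31 and 0.30. The lowest values were those of the NuRD subunit genes Gatad2a, Rbbp7 and Mta1, at -0.44, -0.43 and -0.40. Of 7 genes of the cereblon ubiquitin ligase, which degrades Ikaros and Aiolos in human cells given lenalidomide, 0 were 2-fold apart and 6 were above 0. Their median was 0.22. Crbn, which encodes cereblon itself, was at 10.61 on the wild-type array and 10.83 on the Runx2-deficient array, and Dda1 was the 1 gene below 0, at -0.33.

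Among genes known as targets of Ikaros or Aiolos in lymphocytes, those 2-fold apart were Il2ra, Cd8a, Cd22 and Dntt, all higher in the Runx2-deficient sample. These 4 differences were known from earlier results when the list was made, so its counts support nothing on their own. Of 36 measured genes, 4 were at least 2-fold higher in the Runx2-deficient sample, 0 were at least 2-fold lower, 16 were above 0 and 20 below. The shares over all named genes were 0.436% higher, 0.647% lower and 42.6% above 0. The median was -0.056, and 0.068 over the 24 genes past the filter. Il2ra, which encodes the interleukin-2 receptor chain CD25, was at 8.01 on the wild-type array and 10.40 on the Runx2-deficient array (5.23-fold). The coreceptor gene Cd8a was at 9.65 and 11.27 (3.07-fold), and Cd22, an inhibitory receptor of B cells, read 257 and 755 intensity units (2.94-fold). Dntt, a lymphoid DNA polymerase gene, was at 10.29 and 11.39 (2.15-fold). On the low side, the survival gene Bcl2, the quiescence factor Klf2 and the cyclin gene Ccnd3 differed by -0.98, -0.95 and -0.78, all short of 2-fold. The B cell repressor gene Bcl6 and the coreceptor gene Cd4 differed by 0.80 and 0.76.

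Of 11 Notch pathway genes, a set that Ikaros represses in T cell precursors, Il2ra was the 1 gene 2-fold apart. The median was -0.058. The Notch target genes Hes1, which was below the brightness filter on both arrays, and Dtx1, which passed it, differed by 0.19 and -0.13. Of 11 regulatory T cell genes, Ikzf2 and Ikzf4 among them, Il2ra was again the 1 gene 2-fold apart and the median was 0.025. Il2ra is the same gene as on the target list, and its difference was known beforehand, so neither count supports anything. The shares over all named genes were 0.436% higher and 0.647% lower. Foxp3, the factor that defines regulatory T cells, was at 7.79 on the wild-type array and 7.59 on the Runx2-deficient array. Tnfrsf18 (GITR) differed by 0.54 and the surface receptor gene Nrp1 by -0.56.

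**Figure D3:**
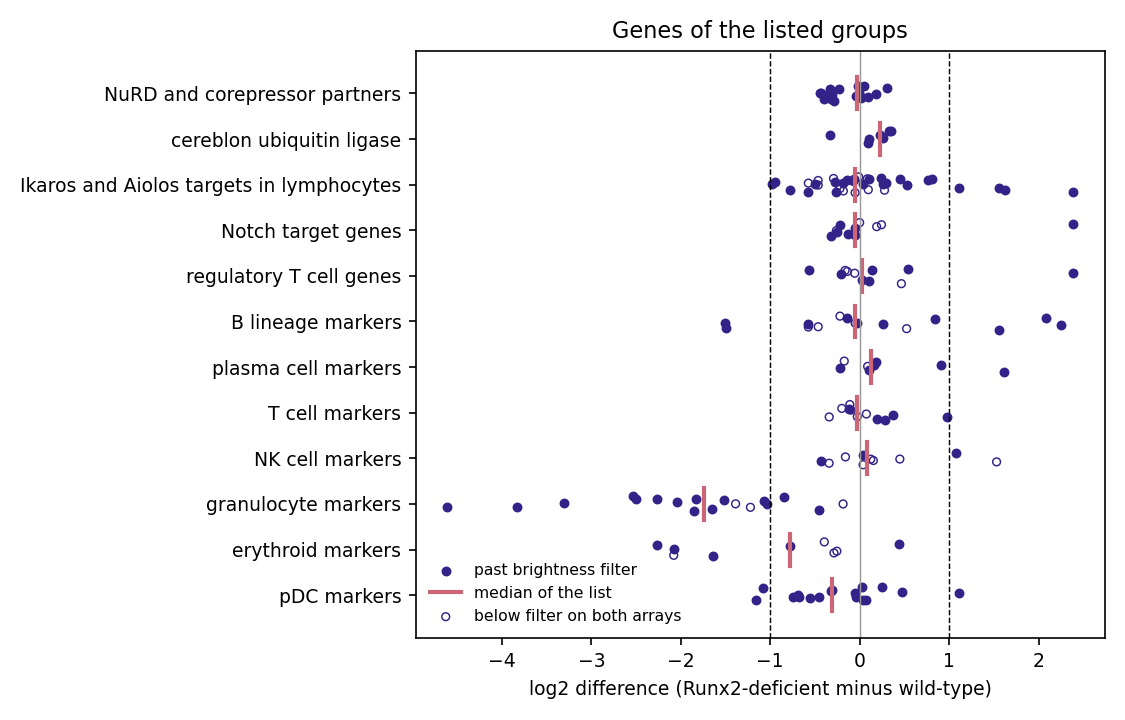
Log2 difference (Runx2-deficient minus wild-type, x axis) of every measured gene in each listed group; filled points are genes past the brightness filter on at least 1 array, open points are genes below it on both, red bars are medians and dashed lines mark 2-fold. Partner genes stay inside the dashed lines, the target list has 4 genes beyond the upper line, and the granulocyte median lies at -1.74.

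Because Aiolos is abundant in B cells, the B lineage list is given beside Ikzf3. Its 15 measured genes had a summed intensity of 10559 on the wild-type array and 12896 on the Runx2-deficient array, and a median difference of -0.052. Without Fcrla, a list member that differed by 0.84, the other 14 genes summed to 7545 and 7484, a comparison chosen after the values were seen. It left out the gene that rose most in intensity units and kept Cd72, which fell most, from 2820 to 999. Each sum therefore depends on single bright genes, and no trend is read from either. Bank1, Fcmr (an IgM receptor) and Cd22 were 4.75-fold, 4.25-fold and 2.94-fold higher. The kinase gene Blk and the receptor gene Cd72 were 2.85-fold and 2.82-fold lower. Genes of the B lineage list were not uniformly bright or dim. Cd79b, a signal chain of the B cell receptor, read 2000 and 2397 intensity units, Fcrla 3014 and 5412, and Cd72 2820 and 999, each on the wild-type and then the Runx2-deficient array. Ms4a1, which encodes CD20, read 57.8 intensity units on the wild-type array and 83.1 on the Runx2-deficient array. Pax5, the factor that commits cells to the B lineage, read 130 and 111, and Ebf1, an earlier B lineage factor, 101 and 67.9. Ms4a1, Pax5 and Ebf1 were below the brightness filter on both arrays. The signal chain gene Cd79a, which was past it, differed by -0.58 and Cd79b by 0.26. Bank1 and Fcmr were put on the list with their differences known, and the Cd22 difference was also known from earlier results. In bulk RNA a change in the number of cells of a type and a change in RNA per cell cannot be told apart.

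Markers of plasma cells, T cells and NK cells were read in the same way. The 8 plasma cell genes had a summed intensity of 12049 on the wild-type array and 14018 on the Runx2-deficient array, with a median difference of 0.13. Slamf7, a surface receptor of plasma cells and other leukocytes, was 3.05-fold higher, and Sdc1, which encodes CD138, differed by 0.91. The plasma cell factor Prdm1, which was below the brightness filter on both arrays, differed by -0.17. The 11 measured T cell genes summed to 2396 and 2954, with 0 genes 2-fold apart and a median of -0.028. The shares over all named genes were 0.436% higher and 0.647% lower, so little is read from a count of 0. Cd3d, Cd3e and Cd3g, which encode chains of the T cell receptor complex, differed by -0.11, -0.34 and -0.028, and none of these 3 passed the filter. Of the 5 T cell genes past the filter, the adaptor gene Lat differed by 0.98, Cd28 by 0.37, Cd247 by 0.28, Cd5 by 0.20 and Bcl11b by -0.12, with a median of 0.28. The 10 NK cell genes summed to 2781 and 2990 and had a median of 0.081, with Klra8, which was below the filter on both arrays, at 1.53 and Klrk1 at 1.08. Nkg7, which passed the filter, and Il2rb, which was below it on both arrays, differed the other way, by -0.44 and -0.34. The part of these cell types in the Ikzf3 difference was not tested.

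**Figure D4:**
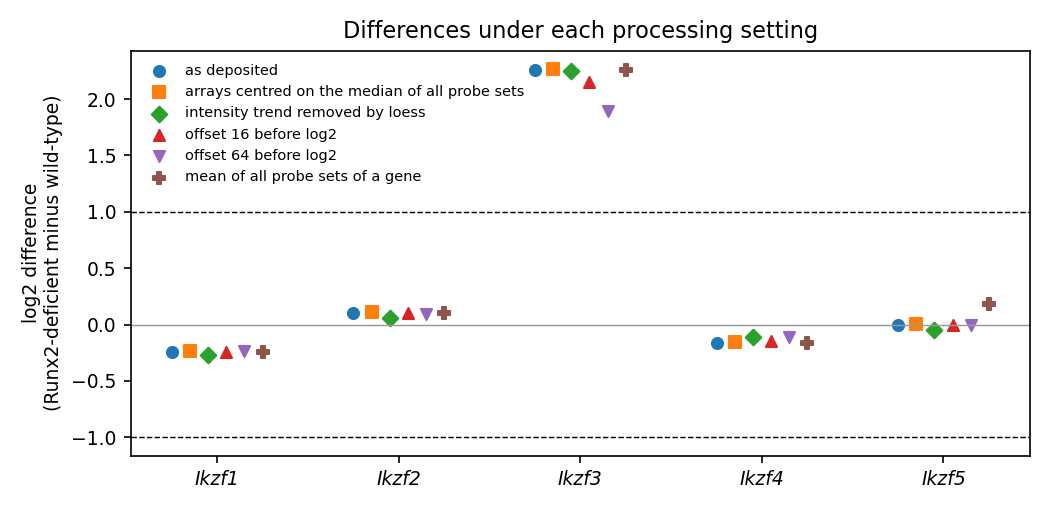
Log2 difference (Runx2-deficient minus wild-type, y axis) of each Ikaros family gene as deposited and under 5 other processing settings (symbols); dashed lines mark 2-fold. Ikzf3 stays between 1.90 and 2.26, and no other member reaches 2-fold in either direction.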

How the data were processed

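The authors deposited 1 linear intensity per probe set and array, from 15.3 to 20364 over 35556 probe sets, made with RMA per the submitters' processing notes; the software and the arrays normalised together are not given in these sources. Values were taken to log2 and wild-type was subtracted from Runx2-deficient. Only the 21789 probe sets with 1 symbol in the platform annotation were named, and the brightest was used per gene. The members, lists and rules were chosen with earlier results of these data known. Named genes were the members, Runx relatives, list members 2-fold apart or among the 3 furthest from 0 in each direction, the 3 nearest genes by both values and the 3 chromosome neighbours on each side of Ikzf1 and Ikzf3. Markers that define a cell type or complex, and the Y-linked genes, were named outside this rule after their values were seen. Alternatives were median centring, loess (span 0.3), offsets of 16 and 64, the mean of probe sets, other filters and a 1.5-fold threshold. The code was run on simulated data with planted shifts far above the simulated noise. That run checks the arithmetic only and says nothing about the error of these arrays. Protein sequences were not used here. Precision is limited by the 2 arrays. Loess came from statsmodels 0.14.6, tables from pandas 2.3.3 with numpy 2.4.6 and figures from matplotlib 3.10.9, under Python 3.11.15.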

Additional observations from a re-analysis of the deposited data

How the results depend on the processing

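Across 5 other settings of scaling, offset and probe set choice, the log2 difference of Ikzf3 ran from 1.90 to 2.26, that of Ikzf1 from -0.27 to -0.23, Ikzf2 from 0.055 to 0.11, Ikzf4 from -0.16 to -0.11 and Ikzf5 from -0.049 to 0.18, so the sign of Ikzf5 depended on the setting. The count of members 2-fold apart was 1 higher and 0 lower under these settings, and also at 1.5-fold. At 1.5-fold, 312 of the genes past the filter were higher and 399 lower, against 82 and 121 at 2-fold; with the filter required on both arrays, 72 were lower. Over members past the filter on at least 1 array, medians moved to 0.068 (Ikaros and Aiolos targets), 0.12 (B lineage), 0.28 (T cell), -1.86 (granulocyte) and -1.64 (erythroid); on both arrays they were 0.099 (targets), 0.28 (T cell), -0.20 (NK cell) and -0.17 (erythroid). Requiring both arrays leaves out genes that are dim in 1 sample, Ikzf3 among them. The granulocyte median was -1.62 with an offset of 16 and -1.36 with 64, and the erythroid one -0.62 with 64. The other 72 of 84 recomputed medians moved by at most 0.1. Some of them could hardly move, since median centring shifts every gene by the same small amount. A filter also changes nothing in a list whose members all pass it. No paired analysis was possible because each genotype has 1 array and no result comes from a test.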
